A study of Mus musculus with 4 samples.

Results

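The clustered protocadherin genes lie next to each other on mouse chromosome 18, in the alpha (Pcdha), beta (Pcdhb) and gamma (Pcdhg) arrays. DNA methylation of these arrays was examined at every cytosine position between 37.08 and 38.01 Mb that had at least 5 calls in each of 4 libraries. A call is the methylated or unmethylated state that a read gives to a cytosine, and the coordinates are those of NCBIM37 (mm9), a build inferred from the chromosome lengths. The criteria kept 309 of the 629262 positions with that depth in the genome. The alpha array (37.08 to 37.36 Mb) held 79 of them, the beta array (37.4 to 37.7 Mb) 45 and the gamma array (37.8 to 38.01 Mb) 181, and 4 lay between the arrays.

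Methylation was measured by reduced representation bisulfite sequencing (RRBS), in which the enzyme MspI enriches CpG-rich fragments and bisulfite converts unmethylated cytosines. RRBS cannot separate methylated from hydroxymethylated cytosine. There was 1 library for each of 4 conditions. The iPSCs carried Pitx3 Gfp/+, a GFP reporter for the dopaminergic transcription factor PITX3, and iPSCs in this study were made from E14.5 embryonic fibroblasts with retroviral Oct4, Klf4, Sox2 and cMyc. The NESTIN-GFP precursors, which their label calls neurons, came from another reporter line (Nestin Gfp/+), in which GFP marks neural precursors. They were collected after 14 days of differentiation on MS5 stromal cells, begun with Noggin and a TGF-β inhibitor. The iPSC-DA neurons (Pitx3 Gfp/+) were also differentiated on MS5 stromal cells, begun with Noggin and a TGF-β inhibitor. They were then patterned with SHH, FGF8, BDNF and ascorbic acid and matured without SHH and FGF8 but with GDNF and cyclic AMP. Sorting by GFP followed after 4 weeks of differentiation. The mdDA neurons were PITX3-GFP-sorted mesodiencephalic dopaminergic neurons from Pitx3 Gfp/+ embryos at E14.5. The iPSC clone sequenced and the number of animals or cultures in a library are not given in the sources used here, and reporter line and stage cannot be told apart for the precursors. No expression was measured in these libraries, so the cell types were not checked here against marker genes. The paper reports marker gene expression in sorted iPSC-DA and mdDA neurons by microarray and quantitative PCR.

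Clustered protocadherins are cell adhesion molecules of the cadherin family that are best known from neurons. In the alpha and gamma arrays, each variable exon has its own promoter and is spliced to constant exons shared by the array, while beta genes are encoded by single exons. A neuron expresses a small set of these genes, chosen in part at random, so that neighbouring neurons carry different combinations at their surface. The last genes of the alpha and gamma arrays, called C-type, are expressed more uniformly among neurons. Promoter methylation is known to accompany silent protocadherin genes, and the CpG-rich variable exons make the arrays visible to RRBS. RefSeq (GRCm38) lists 14 alpha genes ending with the C-type genes Pcdhac1 and Pcdhac2, 22 beta genes, and 22 gamma genes ending with Pcdhgc3, Pcdhgc4 and Pcdhgc5. Its coordinates are of another build, so the stretches described here are numbered in the order of the chromosome and not assigned to genes, and no sequence is shown.

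The iPSC library held 68545752 calls, the NESTIN-GFP library 31419979, the iPSC-DA library 79648099 and the mdDA library 72993474. At the array positions the median depth was 53, 17, 42 and 48 calls in that order, so the precursor levels are the coarsest. Since each condition had 1 library, there is no spread between replicates. Intervals are Wilson 95% intervals that cover counting error alone, and tests compare these libraries rather than the conditions. A level between the extremes can come from a mixture of cells or from a mixture of alleles within cells, which cannot be told apart here.

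All 3 arrays were sparsely methylated in iPSCs and carried more methylation in the other libraries. The alpha array had a mean level of 21.0% ± 25.2 in iPSCs, 64.7% ± 34.7 in NESTIN-GFP precursors, 60.5% ± 21.4 in iPSC-DA and 47.6% ± 36.0 in mdDA neurons (SD over 79 positions). In the beta array the means were 28.9% ± 24.7, 78.3% ± 27.1, 66.4% ± 19.1 and 76.8% ± 19.2 in the same order (SD over 45 positions). In the gamma array they were 11.8% ± 14.7, 58.2% ± 34.8, 53.9% ± 31.7 and 34.6% ± 26.0 (SD over 181 positions). These means were the lowest of the arrays in each library, but with all positions covered in the precursor library its gamma mean was 67.5% and its alpha mean 65.8%. Inside CpG-dense clusters the gamma mean was also above the alpha mean in all libraries but that of iPSC-DA neurons. Positions within an array are not replicates, and their SD describes how unevenly the array was methylated.

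**Figure D1:**
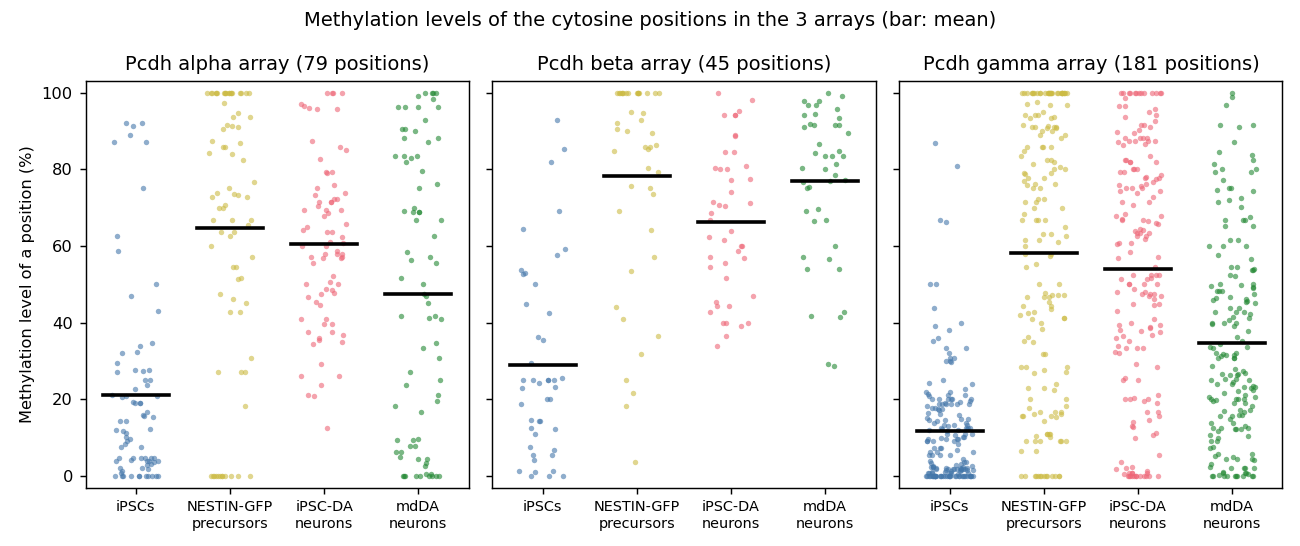
Methylation level (%) of each cytosine position in the alpha (79 positions), beta (45) and gamma (181) arrays in the 4 libraries. Points are positions, spread sideways for visibility, and black bars are means, which lie lowest in iPSCs in each array.

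The arrays also differed in how the iPSC-DA and mdDA neurons compared. The mean over positions was 12.9 points higher in iPSC-DA neurons in the alpha array and 19.3 points higher in the gamma array. In the beta array the mean of iPSC-DA neurons minus that of mdDA neurons was -10.5 points. Of the 181 gamma positions, 82 (45.3%) were at least 20 points higher in iPSC-DA neurons and 6 (3.31%) were at least 20 points lower. In the alpha array 31 of 79 (39.2%) were higher and 8 (10.1%) lower by that margin. In the beta array 1 of 45 (2.22%) was higher and 14 (31.1%) were lower. Over the 629262 positions of the genome, 22.1% were higher and 4.76% lower by that margin, with a mean difference of 7.58 points. Outside CpG-dense clusters, the genome shares were 16.2% and 11.9%, with a mean difference of 2.08 points. The size of these differences depended on the weighting and on the positions used. With calls pooled over positions, the gamma difference was 11.6 points. At positions inside CpG clusters, which are dense runs of CpGs, it was 4.72 points in the gamma and 29.1 points in the alpha array. As a measure of spread inside a library, 13 pairs of adjacent array positions, taken as the strands of a CpG, differed by a median of 6.63 points in iPSCs, 14.4 in NESTIN-GFP precursors, 11 in iPSC-DA and 4.75 in mdDA neurons.

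Most of the array positions lay outside CpG clusters. A CpG cluster, which stands in for a CpG island, is a run of 10 or more positions less than 100 bp apart, each with 5 or more calls in both dopaminergic libraries. Of the 305 array positions, 247 lay outside clusters, where their mean level was 19.0% in iPSCs, 72.3% in NESTIN-GFP precursors, 64.2% in iPSC-DA and 50.1% in mdDA neurons. At the 223535 positions outside clusters in the genome the means were 50.8%, 80.7%, 68.5% and 66.4%. Outside clusters, the pooled positions of the 3 arrays were thus below the genome in each library, while the beta array alone, at 76.8%, was above it in mdDA neurons. At the 6277 positions outside clusters on the rest of chromosome 18 the means were 53.4%, 82.8%, 70.6% and 69.8%, close to those of the genome. Inside clusters the order of the means over positions was the reverse. The 58 array positions there had means of 7.10%, 22.5%, 28.8% and 19.0%, against 5.77%, 15.4%, 19.5% and 8.93% in the genome. Much of this came from 1 cluster of 11 positions (chr18:37845607-37845899), with means of 16.6%, 91.6%, 86.6% and 71.9%. In the precursors the other tested clusters had means of at most 10.7%. With calls pooled, the arrays inside clusters were below the genome in iPSCs (5.38% against 5.64%) and iPSC-DA neurons (16.7% against 17.95%). They were above it in NESTIN-GFP precursors (38.6% against 19.8%) and mdDA neurons (10.6% against 9.12%).

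Intermediate levels were frequent in the arrays. Outside clusters, 70.9% of array positions in iPSC-DA and 58.3% in mdDA neurons had a level of at least 20% and under 80%, against 37.7% and 22.4% of positions in the genome. The share was 46.2% in NESTIN-GFP precursors, against 16.5% in the genome. In iPSCs, by contrast, 64.8% of array positions were under 20%, and the intermediate share was 30.8%, against 45.2% in the genome. These shares are descriptions, since neighbouring positions lie on the same fragments.

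**Figure D2:**
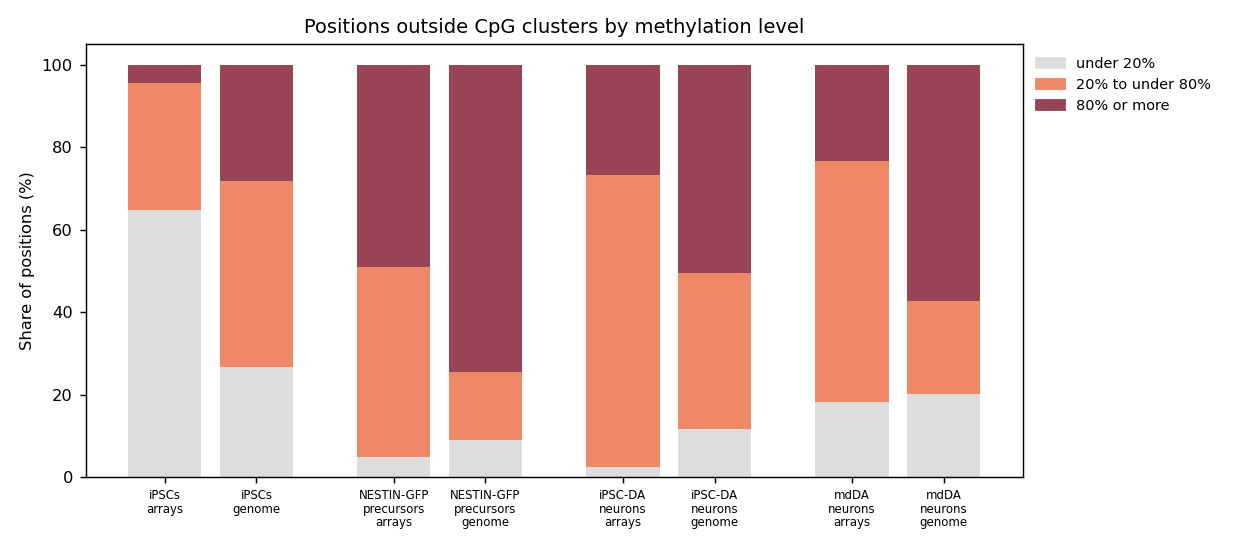
Share of positions (%) outside CpG clusters with a level under 20%, of 20% to under 80%, and of 80% or more, for the 247 array positions and the 223535 genome positions in each library. The intermediate share is higher in the arrays than in the genome in all libraries but iPSCs.

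Compared with iPSCs, 85.0% of the array positions outside clusters were at least 20 points higher in iPSC-DA neurons, against 40.4% in the genome. In NESTIN-GFP precursors 86.6% were higher by that margin, against 56.0% in the genome, and in mdDA neurons 63.6%, against 34.5%. These comparisons share the iPSC library. In it, 4.45% of array positions and 28.1% of genome positions outside clusters were at 80% or more. Positions above 80% cannot rise by 20 points, and the shares were not matched for the starting level.

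To follow the arrays along the chromosome, positions were joined into CpG blocks, which are runs of at least 3 positions with gaps under 2000 bp. The minimum of 3 was chosen after the data had been seen, since runs of at least 10 positions left 12 blocks. The arrays held 34 of the 39804 blocks in the genome, 7 in alpha, 5 in beta and 22 in gamma, and 13 further positions lay in 7 shorter runs. The level of a block is its methylated calls over all its calls. Two-sided Fisher's exact tests with Benjamini-Hochberg adjustment over all 39804 blocks were used, and a block was called at an adjusted p under 0.05 and a difference of at least 20 points. Reads carry linked calls and PCR copies, so these p-values are too small.

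The median level of the 34 blocks was 13.7% in iPSCs, 70.6% in NESTIN-GFP precursors, 62.8% in iPSC-DA and 42.8% in mdDA neurons. Over all blocks of the genome it was 42.0%, 91.4%, 71.6% and 76.3%. Levels of at least 20% and under 80% were found for 28 of 34 blocks (82.4%) in iPSC-DA neurons, against 36.7% of blocks in the genome. The same number, 28 of 34, was found in mdDA neurons, against 17.3% in the genome. In iPSCs 27 of the 34 blocks were under 20%. Within a block, the median SD over positions was 10.6 points in iPSCs, 20.2 in NESTIN-GFP precursors, 15.7 in iPSC-DA and 16.4 in mdDA neurons, and the SD between blocks was 19.0, 24.3, 20.5 and 25.0 points.

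**Figure D3:**
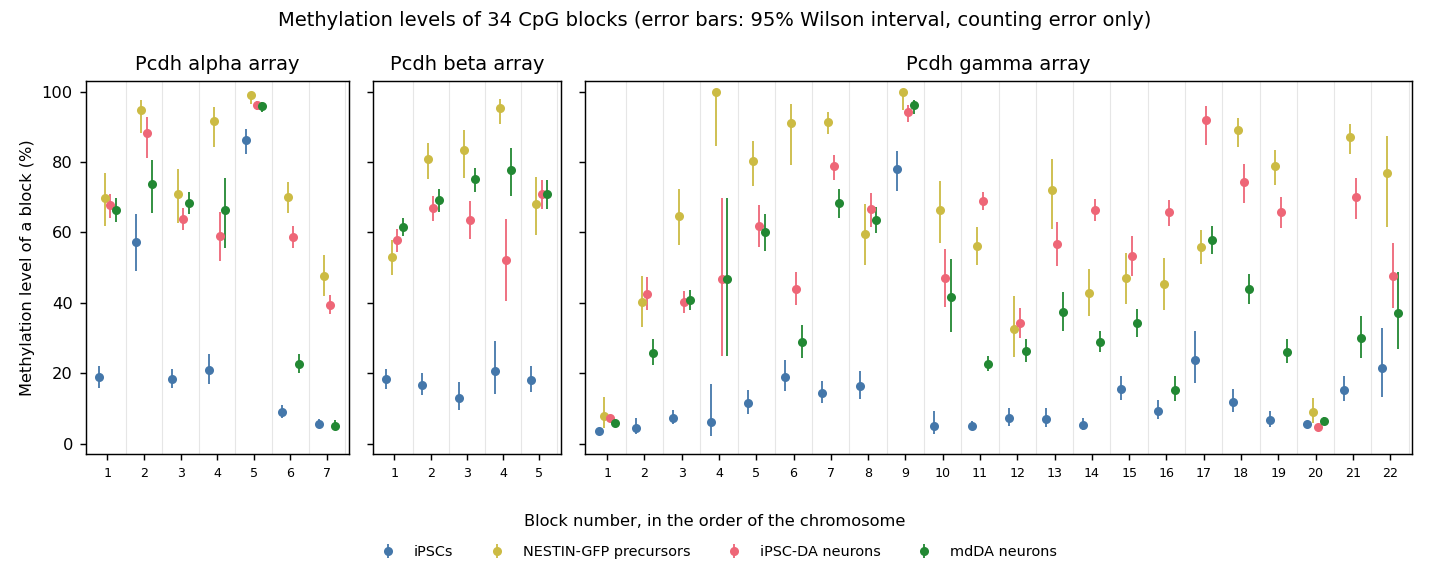
Methylation level (%) of the 34 CpG blocks, numbered along the chromosome within each array, in the 4 libraries. Points are levels from pooled calls, and error bars are Wilson 95% intervals, which cover counting error alone. Alpha 5 and gamma 9 are high in all libraries, and gamma 1 and gamma 20 are low in all libraries.

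Relative to iPSCs, most blocks were higher in each of the other libraries. In iPSC-DA neurons 30 of 34 blocks were called higher, 6 in alpha, 5 in beta and 19 in gamma, against 36.7% of blocks in the genome, and 0 were called lower, against 3.16%. In NESTIN-GFP precursors 31 were called higher (6, 5 and 20), against 47.1% in the genome, and 0 lower, against 0.0729%. In mdDA neurons 19 were called higher (3, 5 and 11), against 27.7%, and 0 lower, against 3.72%. The median difference from iPSCs over the 34 blocks was 43.7 points in iPSC-DA neurons, 51.9 in NESTIN-GFP precursors and 27.0 in mdDA neurons, where the medians over all blocks were 10.6, 18.4 and 6.59 points. The array blocks were lower in iPSCs, at a median of 13.7% against 42.0%, and so had more room to rise. Neither counts nor differences were matched for the starting level.

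A few blocks were high or low in all libraries. Alpha 5 (chr18:37139984-37140112) was at 86.1% in iPSCs, 99.0% in NESTIN-GFP precursors, 96.3% in iPSC-DA and 95.9% in mdDA neurons. Gamma 9 (chr18:37875961-37875987, 3 positions) was at 77.9%, 100%, 94.3% and 96.1% in the same order, and was called higher than iPSCs in the precursors alone. These were the most methylated blocks of their arrays in iPSCs. At the other end, gamma 20 (chr18:37965933-37967250, 21 positions) was at 5.52%, 8.88%, 4.77% and 6.58%. Gamma 1 (chr18:37803589-37803864, 13 positions), the first block inside the limit of the gamma array, was also low, at 3.61%, 7.75%, 7.27% and 5.82%. In RefSeq, Slc25a2 and Taf7 lie between the last beta and the first gamma gene, and whether gamma 1 belongs to a protocadherin gene was not tested. Without gamma 1 the iPSC-DA mean of the gamma array was 20.6 points above that of mdDA neurons.

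Between the iPSC-DA and mdDA neurons, 9 of 34 blocks were called higher in iPSC-DA neurons, 2 in alpha, 0 in beta and 7 in gamma, against 15.7% of blocks in the genome. A single block, beta 4, was called lower, against 5.86% of blocks in the genome. The median difference over the 34 blocks was 6.64 points, and that over all blocks was 0. Across the 34 blocks the levels of both libraries were correlated (Pearson's r = 0.68, Spearman's rho = 0.57), a description over blocks that share library and depth. The iPSC-DA levels were less correlated with iPSCs (r = 0.62, rho = 0.53) and with NESTIN-GFP precursors (r = 0.65, rho = 0.45). The mdDA levels, by contrast, were at least about as close to those libraries as to iPSC-DA neurons. They had r = 0.69 and rho = 0.73 with iPSCs, and r = 0.68 and rho = 0.67 with NESTIN-GFP precursors.

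In the alpha array, the called blocks were the last ones. Alpha 6 (chr18:37249576-37251656, 21 positions) was at 8.95% (95% interval 7.28 to 10.9) in iPSCs, 70.2% (65.6 to 74.4) in NESTIN-GFP precursors, 58.8% (55.7 to 61.9) in iPSC-DA and 22.8% (20.2 to 25.5) in mdDA neurons. Alpha 7 (chr18:37303458-37304435, 21 positions) was at 5.57% (4.37 to 7.06), 47.7% (41.8 to 53.7), 39.4% (36.8 to 42.1) and 5.13% (3.97 to 6.61). The level in mdDA neurons was thus near that of iPSCs in alpha 7, where their difference was not called (adjusted p = 0.759, Fisher's exact test). The differences between iPSC-DA and mdDA neurons were 36.1 points in alpha 6 (adjusted p = 4.66e-58) and 34.3 points in alpha 7 (adjusted p = 2.02e-95, Fisher's exact test). With unweighted means of positions they were 26.3 and 29.5 points. Positions of alpha 6 ranged from 0% to 96.2% in mdDA neurons. Those up to 157.927 kb from the first covered alpha position were all higher in iPSC-DA neurons. From 158.048 kb on they went both ways, such as 65% in iPSC-DA against 96.2% in mdDA neurons, and 50% against 34.6%. Alpha 1 to 5 were between 58.9% and 96.3% in iPSC-DA neurons and between 66.3% and 95.9% in mdDA neurons. None of these blocks was called between those libraries. Alpha 2 had the largest difference of them, 88.1% in iPSC-DA and 73.8% in mdDA neurons, which was 14.3 points (adjusted p = 0.0118, Fisher's exact test) and under the 20 points required. The difference was -7.32 points in alpha 4 and -4.58 points in alpha 3 (adjusted p = 0.388 and 0.0776), and 1.20 points in alpha 1 (adjusted p = 0.753, Fisher's exact test).

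Alpha 7 began with a CpG cluster of 12 positions and 194 bp, in which the levels differed from those of the rest of the block. The cluster was at 3.41% in iPSCs, 35.9% in iPSC-DA and 3.17% in mdDA neurons, and 0 of 100 calls were methylated in NESTIN-GFP precursors, which allows a level of up to 3%. These 100 calls were spread over 12 positions and so came from few reads, and the limit covers counting error alone. In the 9 positions after it, the levels were 11.3%, 46.7%, 12.1% and, in the precursors, 76.5%. The precursors thus had the highest level next to the cluster, while inside it their difference from iPSCs was not called (adjusted p = 0.0834, Fisher's exact test). This cluster was called higher in iPSC-DA neurons than in mdDA neurons (32.8 points, adjusted p = 1.04e-73 over 16693 clusters of the genome, Fisher's exact test). It was also called higher in iPSC-DA neurons than in NESTIN-GFP precursors (35.9 points, adjusted p = 5.44e-18, Fisher's exact test).

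The arrays held 5 CpG clusters, 1 in alpha, 0 in beta and 4 in gamma. Of the 5, the alpha cluster was the 1 called higher in iPSC-DA than in mdDA neurons, against 27.8% of clusters in the genome. Relative to iPSCs, 2 were called higher in iPSC-DA neurons (34.0% in the genome), 1 in NESTIN-GFP precursors (21.3%) and 1 in mdDA neurons (7.04%). The gamma cluster counted in all of these was gamma 7 (chr18:37845607-37845899), whose level was 14.4% in iPSCs, 91.5% in NESTIN-GFP precursors, 78.7% in iPSC-DA and 68.3% in mdDA neurons. Between iPSC-DA neurons and NESTIN-GFP precursors, 1 cluster was called higher (15.3% in the genome). The other gamma clusters, in gamma 1 and gamma 20, were under 10% in all libraries.

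In the beta array, both dopaminergic libraries had like levels in most blocks. Beta 1 (chr18:37424877-37425772) was at 18.3% in iPSCs, 53.0% in NESTIN-GFP precursors, 57.7% in iPSC-DA and 61.6% in mdDA neurons. Beta 5 (chr18:37645555-37646649) was at 18.1%, 68.1%, 70.9% and 70.9%, with no call between the dopaminergic libraries (adjusted p = 1, Fisher's exact test). The exception was beta 4 (chr18:37482055-37482274, 9 positions), at 20.7% (14.2 to 29.2), 95.4% (90.9 to 97.8), 52.2% (40.5 to 63.7) and 77.9% (70.3 to 83.9). Its iPSC-DA level rested on 67 calls, and its difference of -25.6 points from mdDA neurons (adjusted p = 0.000832, Fisher's exact test) was -12.4 points and not called when all libraries were thinned to the shallowest. Beta 3 had a difference of -11.5 points (adjusted p = 0.00088, Fisher's exact test), smaller than the 20 points required.

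The gamma array held 7 of the 9 blocks called higher, but also 22 of the 34 blocks tested. The counts called were 7 of 22 in gamma, 2 of 7 in alpha and 0 of 5 in beta, against 15.7% of blocks in the genome. The called gamma blocks lay between gamma 11 and gamma 21. Gamma 16 (chr18:37911465-37912828, 5 positions) showed the largest difference in the arrays. It was at 9.34% (6.96 to 12.4) in iPSCs, 45.3% (38.0 to 52.8) in NESTIN-GFP precursors, 65.7% (61.8 to 69.3) in iPSC-DA and 15.4% (12.1 to 19.4) in mdDA neurons, so that the dopaminergic libraries differed by 50.3 points (adjusted p = 3.90e-56, Fisher's exact test). Gamma 11 (chr18:37885400-37886412, 12 positions) was at 5.07% (3.93 to 6.51), 56.2% (50.7 to 61.6), 68.9% (66.2 to 71.5) and 22.7% (20.6 to 24.9), a difference of 46.3 points (adjusted p = 1.91e-128, Fisher's exact test). In both blocks the intervals of the iPSC-DA and mdDA libraries did not overlap.

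The other called gamma blocks were gamma 14, 17, 18, 19 and 21, and the first 4 of these differed by 37.4, 34.1, 30.4 and 39.5 points. Gamma 17 was the most methylated of these in iPSC-DA neurons, at 91.9% on 99 calls, and was at 57.9% on 617 calls in mdDA neurons. Gamma 21 (chr18:37979450-37981819) was at 15.3% in iPSCs, 87.1% in NESTIN-GFP precursors, 70.0% in iPSC-DA and 30% in mdDA neurons. Set side by side, gamma 2 to 10 had differences between -1.85 and 16.7 points with a median of 2.96, and 0 of 9 were called. Gamma 11 to 19 had differences between 7.84 and 50.3 points with a median of 34.1, and 6 of 9 were called. Over all blocks of the genome 15.7% were called higher, with a median difference of 0. That genome share is low as well, so no conclusion is drawn from the 0 of 9. Gamma 1 and gamma 20 to 22 were left out of both groups, and of these gamma 21 alone was called. This division was made after the values had been seen, and no test was run on it. The last block, gamma 22 (chr18:38002348-38002377, 3 positions), was at 21.5%, 76.9%, 47.7% and 37.1%, on 65, 39, 109 and 70 calls, and was not called between the dopaminergic libraries (10.6 points, adjusted p = 0.312, Fisher's exact test). In RefSeq, Diaph1 follows the gamma genes, and whether gamma 22 belongs to a protocadherin gene was not tested.

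**Figure D4:**
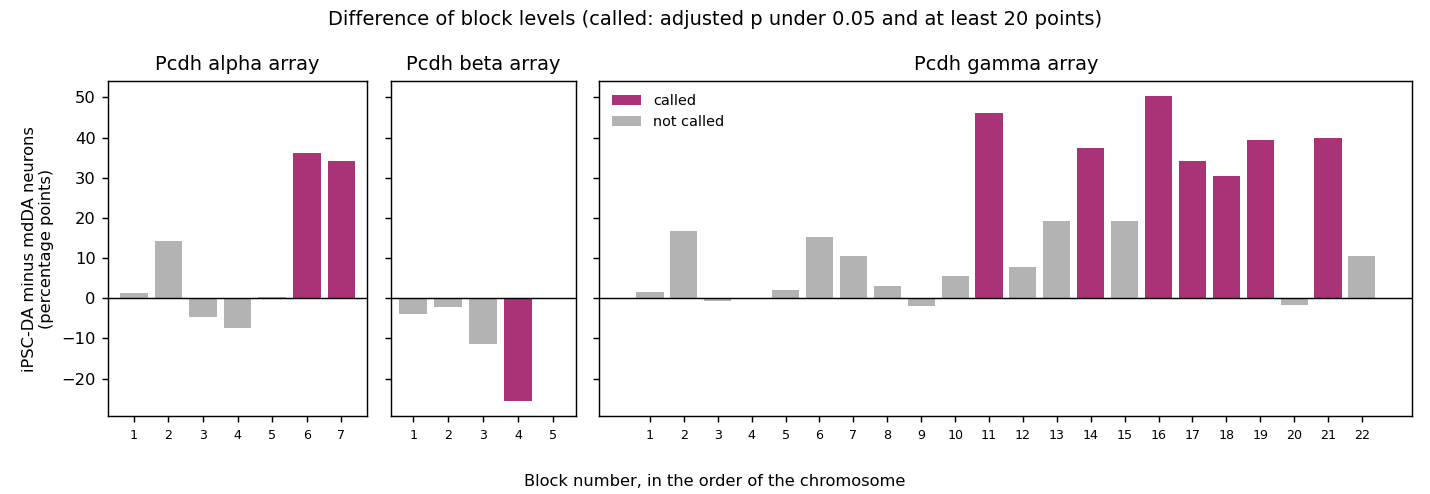
Level of iPSC-DA neurons minus that of mdDA neurons (percentage points) for the 34 CpG blocks, numbered along the chromosome within each array. Purple bars are called blocks, 9 above and 1 below 0, and the called gamma blocks are gamma 11, 14, 16, 17, 18, 19 and 21.

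Levels of iPSC-DA neurons and NESTIN-GFP precursors differed in both directions. In iPSC-DA neurons 3 of 34 blocks (8.82%) were called higher (gamma 14, 16 and 17), against 4.27% of blocks in the genome. A further 6 (17.6%) were called lower (alpha 4, beta 4 and gamma 3, 4, 6 and 22), near the 20.3% of the genome. The median difference over the 34 blocks was -7.76 points, also near the -5.75 points over all blocks. Alpha 4 (chr18:37114440-37114630) was at 20.9% in iPSCs, 91.6% in the precursors, 58.9% in iPSC-DA and 66.3% in mdDA neurons. Gamma 17 ran the other way, at 23.8% in iPSCs, 56.0% in the precursors, 91.9% in iPSC-DA and 57.9% in mdDA neurons. Gamma 4 was called on few calls, 21 in the precursors and 15 in iPSC-DA neurons. With unweighted means of positions 1 block was called higher, and with gaps under 4000 bp 0 were. With a minimum of 10 calls 3 blocks were called lower. The precursor library was the shallowest, and with all libraries thinned to its depth 2 blocks were called higher and 6 lower. The precursors also came from another reporter line, whose part in these differences was not tested.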

How the data were processed

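RRBS data of 4 libraries were used. The authors sequenced single reads of 40 bases, used FastQC for quality control and Trim Galore (0.3.5) for trimming, and made alignments and calls with Bareback and Bismark (0.10.1; versions from the submitters' processing notes). The authors deposited, per cytosine position, counts of methylated and of unmethylated calls, without normalization, and the percent of methylated calls, which was recomputed here from the counts. The genome build is not given in the sources used here; positions on chromosome 1 reach 197192264, which fits NCBIM37. A CpG's strands are listed as separate positions.

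The array limits, blocks and lists were chosen with earlier results of these data known. Positions needed at least 5 calls in all 4 libraries. Clusters and blocks were tested genome-wide with two-sided Fisher's exact tests on pooled calls and Benjamini-Hochberg adjustment, in 5 comparisons adjusted separately. Clusters needed at least 5 covered positions. Blocks of at least 3 positions were added after seeing the data. Blocks were named where, within an array, they were among the 2 largest or 2 smallest differences of iPSC-DA minus mdDA neurons, the highest in iPSCs, the first or the last, and clusters with the largest rise were named too. The other called blocks, alpha 2 and gamma 4 were named after their values were seen. On simulated data, 200 of 200 clusters (of 16693) and 196 of 200 blocks (of 39804) changed by 30 points were recovered, and 0 unchanged ones were called. Alternatives were other call minimums, sizes of difference, gaps and block sizes, unweighted or pooled levels, merged strands, thinned libraries and other sets of positions. Where a level was 0, 3 calls of the total were taken as the limit. Python 3.11.15, numpy 2.4.6, pandas 2.3.3 and scipy 1.17.1 were used.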

Additional observations from a re-analysis of the deposited data

How the results depend on the processing

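The 3 array differences between iPSC-DA and mdDA neurons kept their direction under every alternative run. The alpha difference (12.9 points) was 10.6 with a minimum of 10 calls, 17.2 with the positions covered in each library and 29.1 in CpG clusters. The beta difference (-10.5) was -7.43 at 10 or more calls and -7.02 with pooled calls. It was not computed without beta 4, which held 9 of the 45 positions and had an unweighted difference of -23.8 points. The gamma difference (19.3) was 21.4 with a minimum of 10 calls, 11.6 pooled, 17.2 with each library's positions, 4.72 in clusters and 20.6 without the first block.

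Of the blocks, 9 were called higher in iPSC-DA than in mdDA neurons, which became 15 at a difference of at least 10 points and 5 with blocks of at least 10 positions. The 1 called lower became 2 with a minimum of 1 call, at 10 points or with positions covered in the 2 libraries compared, and 0 at 30 points, thinned or with blocks of at least 10 positions. Blocks of at least 10 positions left 10, 10 and 4 higher than iPSCs in iPSC-DA neurons, NESTIN-GFP precursors and mdDA neurons, and 0 higher and 0 lower in iPSC-DA neurons than in the precursors. Only 12 blocks were tested there. With a minimum of 1 call, or with positions of the 2 libraries compared, 1 block was lower in iPSC-DA neurons than in iPSCs. The 3 blocks higher in iPSC-DA neurons than in the precursors became 1 at 30 points, 1 with unweighted means and 0 with gaps under 4000 bp. The 6 lower became 3 with a minimum of 10 calls, 10 with a minimum of 1 call and 16 at 10 points.

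Clusters of at least 20 positions left 1 in the arrays, with 0 called in all 5 comparisons. With a minimum of 10 calls 3 clusters were left, and 0 were called between the dopaminergic libraries, 1 in iPSC-DA neurons against iPSCs and 0 against the precursors. The count between the dopaminergic libraries was 2 with a minimum of 1 call, at 10 points or with positions of the 2 libraries compared, and that of the precursors against iPSCs was 2 with a minimum of 1 call. The other 137 values of these counts and differences stayed within 1.5 times the count or within the counting interval. Of the 10 called blocks, beta 4 lost its call when thinned (-12.4 points, adjusted p = 0.699, Fisher's exact test) and gave no value with a minimum of 10 calls, and the other 9 kept theirs under the 4 alternatives run on them. With pooled calls the gamma level of iPSC-DA neurons was 40.1%, against 53.9% as the mean over positions. Depth limits the precursor levels most, and blocks with few calls, such as gamma 4, could not be placed closely. No paired analysis was possible because each condition had 1 library.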

Other observations

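The 13 array positions in runs of fewer than 3 had a median level of 52.7% in iPSCs, 90.5% in NESTIN-GFP precursors, 74.0% in iPSC-DA and 86.7% in mdDA neurons. In iPSCs this was above the median of 13.7% of the 34 blocks. The 4 positions between the arrays had means of 45.2%, 91.2%, 68.5% and 82.1% in the same order.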
